A study of Mus musculus with 12 samples.

Results

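JAK-STAT5 signalling was followed through 10 genes: the kinases Jak1 and Jak3, the transcription factors Stat5a and Stat5b, the feedback inhibitors Cish, Socs1, Socs2 and Socs3, and the kinases Pim1 and Pim2. The members were all probe sets whose platform annotation gives one of these symbols, which are 24 of the 45037 on each array. Socs2 has 6 of them, Socs3, Jak1 and Jak3 have 3 each, Stat5a, Stat5b and Pim1 have 2 each, and Cish, Socs1 and Pim2 have 1 each. Of the Jak3 probe sets, 2 are annotated to Insl3 as well. No filter on low values was set, so all 24 entered every test. Probe sets of 1 gene share a target and are not replicates of one another.

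The series holds 12 one-colour Affymetrix arrays in 4 groups of 3. All groups are Ebf1-/- pre-pro-B cells of strain C57BL/6, progenitors held before the pro-B stage, so the controls lack a working Ebf1 gene too. Cells of 2 groups were transduced with the EBF (Mig-EBF1) retrovirus (first set) or the PAX5 (Mig-PAX5) retrovirus (second set), which carry the B-lineage transcription factors EBF1 and PAX5. Each set has its own control group, transduced with the control (MigR1) retrovirus that encodes GFP. OP9, a stromal cell line from mouse bone marrow, served as the feeder layer for all cells, with SCF and Flt3L at 10 ng/ml and IL-7 at 5 ng/ml. GFP-positive cells were sorted 2 days after infection. The factors are therefore read at the level a retroviral vector gives them, in cultured cells. The sources used here give neither the age and number of the mice nor whether arrays of a group come from separate cultures. The p-values below therefore rest on array-to-array spread alone, and that spread may be technical.

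Interleukin-7 is the main growth factor of early B-lineage cells in the mouse. Its receptor carries JAK1 on the alpha chain and JAK3 on the common gamma chain, and these kinases phosphorylate STAT5A and STAT5B, which then dimerise and bind DNA at TTCNNNGAA elements. Among the genes STAT5 is known to switch on are Cish and Socs2, whose products bind activated receptors, and Socs1 and Socs3, whose products inhibit JAK kinases as well; together they close a negative feedback loop. The PIM kinases are serine/threonine kinases that lie downstream of STAT5 and promote survival and growth.

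The promoter windows of Cish and Socs3 are shown because these genes gave the highest EBF1 readings relative to control among the members. They alone of the member windows also hold the STAT5-type motif. Socs2 has no window and was searched for no motif. The windows are from RefSeq (GRCm38.p6), run 5′ to 3′ on the gene's strand from 250 bases before to 50 bases after the start region, and carry the motif in capitals.
Cish, chr9:107296409-107296708, plus strand: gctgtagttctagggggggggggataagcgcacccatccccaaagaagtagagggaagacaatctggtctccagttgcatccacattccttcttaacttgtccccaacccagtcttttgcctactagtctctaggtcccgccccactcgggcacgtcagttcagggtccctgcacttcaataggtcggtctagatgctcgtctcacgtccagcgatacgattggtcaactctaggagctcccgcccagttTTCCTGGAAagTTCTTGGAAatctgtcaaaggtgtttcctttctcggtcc
Socs3, chr11:117969317-117969616, minus strand: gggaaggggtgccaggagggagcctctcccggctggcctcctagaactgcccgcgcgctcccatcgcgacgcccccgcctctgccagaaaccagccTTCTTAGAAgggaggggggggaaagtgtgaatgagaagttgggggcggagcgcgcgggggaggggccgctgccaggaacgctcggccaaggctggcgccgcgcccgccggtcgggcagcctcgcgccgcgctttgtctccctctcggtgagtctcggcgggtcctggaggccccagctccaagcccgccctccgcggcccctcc
In the Cish window TTCCTGGAA lies at positions 251 to 259 and TTCTTGGAA at 262 to 270, counted from 1 at the 5′ end, with the annotated start at position 251. In the Socs3 window TTCTTAGAA lies at positions 97 to 105. The motif TTCNNNGAA, which reads the same on both strands, was present in 2 of the 12 windows that the table holds for 9 member genes, against 8.3% of all 32851 windows. The EBF1-type motif, TCCC and GGGA around 2 bases of any kind and also the same on both strands, was present in 0 of the 12 and in 0.904% of all windows. A match is a string of letters and is given as a description only.

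Median intensity was 55.1 to 60.6 on the first set's arrays and 65.3 to 68.9 on the second's. Same-numbered control arrays of the sets looked like repeats of 1 hybridisation (robust SD of the log2 difference 0.0392 to 0.0942 over 12889 bright probe sets, against 0.287 to 0.374 for unequal numbers), and so did PAX5 arrays 2 and 3 (0.0774). They were counted once, which leaves 3 EBF1, 2 PAX5 and 3 control samples, and the EBF1 and PAX5 comparisons share their controls. For the labelled cell type, the first set's controls read 5693 to 6434 for Ptprc, 737 to 3111 for Il7r, 1823 to 2927 for Flt3 and 2032 to 4127 for Cd93, whereas Dntt was 754 on control array 1 and 58.8 and 119.9 on the others. The Pax5 probe set read 1849, 891 and 932 on the PAX5 arrays, against 7.98 to 12.8 on their controls. The Ebf1 probe set read 1886 to 2477 on the EBF1 arrays and 2027 to 2173 on their controls, so it does not separate them, and the sources used here do not say which part of the gene it covers. Summed over 9 B-lineage marker genes, intensity was 28718, 20556 and 12931 on the EBF1 arrays, 9906, 7510.3 and 7219 on the PAX5 arrays, 2474 to 2552 on the first set's controls and 2914 to 3044 on the second's. These sums include the Pax5 probe set, which the PAX5 vector supplies, and the Ebf1 probe set. Without both and without Blnk, chosen after the data were seen, they were 25560.5, 17064 and 10679 on the EBF1 arrays, against 259 to 298 on their controls, and 1109, 1087 and 995 on the PAX5 arrays, against 852 to 984. So the higher PAX5 sums rest mainly on Pax5 itself and on Blnk (4877, 3639 and 3351, against 29.8 to 116). EBF1 array 3 stood apart: its sum over 19 stroma marker genes was 14036, against 3669 and 1666 on the other EBF1 arrays and 1361 to 3001 on their controls.

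With EBF1, Cish and 2 of the 3 Socs3 probe sets read about 3 times the control, and 1 of the 2 Pim1 probe sets somewhat above it, while both Stat5b probe sets, 2 of the 3 of Jak3 (1 of them shared with Insl3) and 2 of the 6 of Socs2 read below the controls on all arrays. With PAX5, Cish, 1 Socs3 probe set and Pim2 read above the controls on all arrays, and Socs1, 4 Socs2 probe sets and both Pim1 probe sets below them. For 0 of the 24 member probe sets was the threshold passed with EBF1, with PAX5 or for the difference between the EBF1 and PAX5 changes (limma on log2(intensity + 16), p-values adjusted by Benjamini-Hochberg over all 45037 probe sets, threshold 0.05; every adjusted p below is from these fits). The share of all probe sets that passed was small too: 0.0977% with EBF1 (0.0933% higher, 0.00444% lower), 0.515% with PAX5 (0.464% higher, 0.0511% lower) and 1.05% for the difference (0.28% higher, 0.77% lower). At an unadjusted p under 0.05 the members numbered 9 of 24 with EBF1 (37.5%, against 9.97% of all probe sets), of which 5 were higher (background 5.53%) and 4 lower (4.44%). With PAX5 they numbered 6 (25%, against 8.51%), of which 2 were higher (background 4.67%) and 4 lower (3.84%). For the difference they numbered 9 (37.5%, against 14.7%), of which 5 had the higher EBF1 change (background 7.79%) and 4 the lower (6.88%). These probe sets were of 5 genes with EBF1, 4 with PAX5 and 7 for the difference. Members are also more often bright. A filter at a mean log2 level of 7 keeps 22 of the 24, but 17670 of all 45037 probe sets. No share of members here or below was adjusted for that. With the replicate number as a block, which pairs EBF1 and control arrays, 7 probe sets and 0 members passed with EBF1. The fit of that set alone without the block gave 18, and the fit over all samples 44. In these cell populations, fewer cells that express a gene and less of its RNA per cell cannot be told apart.

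By arrays alone, 10 of the 24 member probe sets had EBF1 and control arrays that did not overlap (41.7%, against 13.2% of all probe sets). EBF1 was above control in 4 of them (Cish, 2 of Socs3 and 1 of Pim1; background 7.06%) and below in 6 (2 each of Socs2, Stat5b and Jak3; background 6.14%). With PAX5 the number was also 10 (41.7%, against 16.9%), of which 3 were above control (Cish, 1 of Socs3 and Pim2; background 8.14%) and 7 below (Socs1, 4 of Socs2 and both of Pim1; background 8.77%). The median log2 change over the 24 probe sets was −0.11 with EBF1, against 0.02 over all probe sets, and −0.01 with PAX5, the same as over all probe sets.

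**Figure D1:**
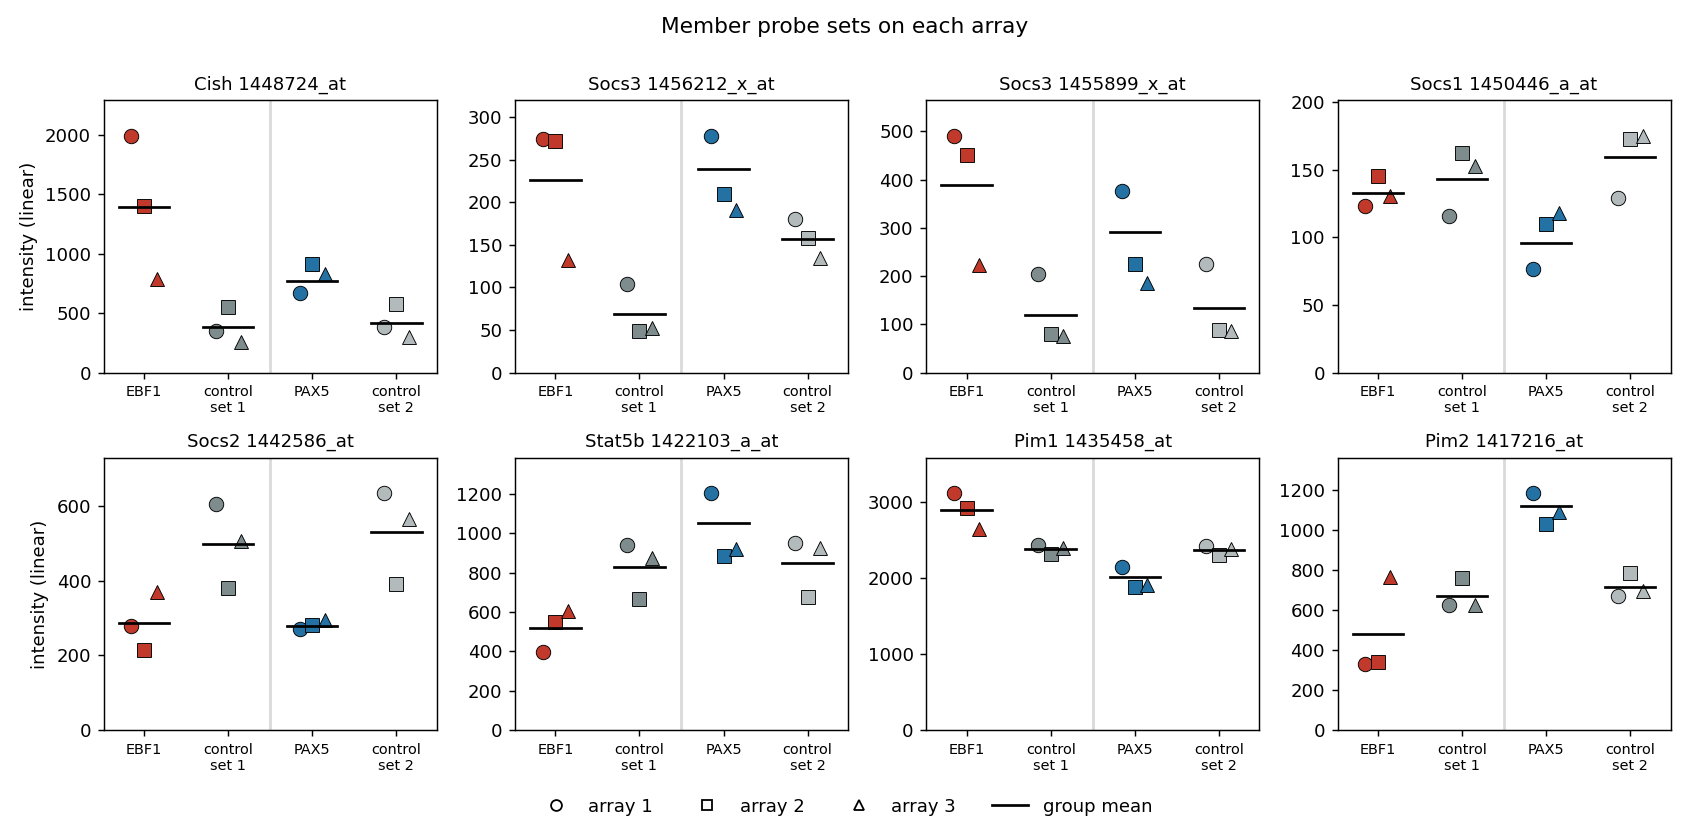
Intensity per array (linear axis from 0) for 8 member probe sets; each symbol is 1 array, the line is the group mean (PAX5 arrays 2 and 3 averaged first), and EBF1 and PAX5 each stand left of the controls of their own set. Each gene shown is given by its probe set with the largest EBF1 change relative to its SE, and Socs3 also by the next. The Socs2 panel is therefore 1442586_at, not the probe sets with small changes. Cish reads 787 to 1991 on the EBF1 arrays and 253 to 555 on their controls, and for Pim2 EBF1 array 3, at 766, stands apart from the other EBF1 arrays at 329 and 342.

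Cish encodes CIS, an SH2 protein that binds phosphorylated cytokine receptors and is widely used as a readout of STAT5 activity. Its probe set (1448724_at) read 1991, 1398 and 787 on the EBF1 arrays, against 345, 555 and 253 on the controls of the first set. All EBF1 arrays were above all controls, and array 3 was the nearest to them. The mean was 1392 ± 602 with EBF1 and 384 ± 155 in controls (SD, n = 3 each), a log2 change of 1.79 (SE 0.35, 95% interval 0.99 to 2.58, adjusted p = 0.14), or 3.45-fold. With PAX5 it read 673, 909 and 833, against 382, 577 and 299.6 on the second set's controls, again without overlap. The PAX5 log2 change was 0.89 (SE 0.39, adjusted p = 0.59), and the EBF1 change exceeded the PAX5 change by 0.89 (SE 0.39, adjusted p = 0.34). Over 19 alternative settings the EBF1 change stayed between 1.48 and 2.14 and passed the test in 2, without EBF1 array 3 (adjusted p = 0.016) and with all 12 arrays counted separately (0.0497).

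Socs3, a JAK inhibitor that acts at gp130-type receptors in particular, has 3 probe sets, and they did not read alike. The probe set 1455899_x_at read 491, 451 and 223 on the EBF1 arrays, against 205, 79.4 and 76.6 on their controls. The lowest EBF1 array was array 3 and the highest control was array 1, which lie close together. Its log2 change was 1.62 (SE 0.41, 95% interval 0.69 to 2.55, adjusted p = 0.23). The probe set 1456212_x_at read 274, 272 and 132 on the EBF1 arrays, against 104, 48.5 and 52.4, with no overlap and a log2 change of 1.51 (SE 0.29, 95% interval 0.86 to 2.17, adjusted p = 0.13). The probe set 1416576_at read 141, 148 and 113, against 119, 90.7 and 108; here the arrays overlapped, and the log2 change was 0.30 (SE 0.14, adjusted p = 0.54).

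With PAX5, Socs3 1455899_x_at read 377, 226 and 187, against 224, 87.5 and 87.1 on the second set's controls. PAX5 array 3 lay below control array 1, and the log2 change was 1.11 (SE 0.46, adjusted p = 0.55). Socs3 1456212_x_at read 278, 209.8 and 190.3, against 179.8, 158 and 134, with a log2 change of 0.55 (SE 0.32, adjusted p = 0.73). The second set's controls, which look like the same hybridisations as the first set's, read this probe set higher by 1.09 on the log2 scale, whereas for the other 23 member probe sets the sets differed by −0.05 to 0.29. The EBF1 and PAX5 changes of this probe set thus refer to control levels that stand apart, and the difference between them, 0.96 (SE 0.32, adjusted p = 0.22), is given with that limit. The probe set 1416576_at read 111, 99.0 and 133 on the PAX5 arrays, against 129, 93.3 and 118, with overlap and a log2 change of 0.0029 (95% interval −0.36 to 0.37).

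Socs1 is a direct inhibitor of JAK catalytic activity. Its probe set (1450446_a_at) read 123, 146 and 131 on the EBF1 arrays, against 116, 162 and 153 on their controls, which overlap (log2 change −0.09, SE 0.17, adjusted p = 0.92). On the PAX5 arrays it read 77.0, 110.3 and 118, against 129.6, 173 and 175, so all PAX5 arrays lay below all controls. The PAX5 log2 change was −0.66 (SE 0.19, 95% interval −1.09 to −0.23, adjusted p = 0.30). The EBF1 change was above the PAX5 change by 0.57 (SE 0.19, adjusted p = 0.22).

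Socs2, which targets growth hormone and other cytokine receptors, is measured by 6 probe sets that did not read alike. For 2 of them the changes were small. The probe set 1449109_at read 7084, 6107 and 7871 on the EBF1 arrays, against 8082, 6889 and 8266, and 6602, 7047 and 6885 on the PAX5 arrays, against 7761, 6686 and 7916. Groups overlapped in both sets, with log2 changes of −0.14 and −0.13. The probe set 1418507_s_at gave −0.17 and −0.05. The probe set 1442586_at, in contrast, read 279, 213 and 370.0 on the EBF1 arrays, against 604, 381 and 506, and 270.3, 281 and 294 on the PAX5 arrays, against 633, 391 and 566. All EBF1 and all PAX5 arrays lay below all of their controls, and the log2 changes were −0.77 with EBF1 (SE 0.22, adjusted p = 0.29) and −0.86 with PAX5 (SE 0.25, adjusted p = 0.30). The probe set 1438470_at was also lower on all EBF1 and all PAX5 arrays, with −0.46 and −0.61. For 1446085_at and 1441476_at the PAX5 arrays lay below their controls (−0.60 and −0.39) and the EBF1 arrays overlapped theirs (−0.29 and −0.03). The sources used here do not say which stretch of the Socs2 transcript each probe set covers, and why they disagree was not tested.

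**Figure D2:**
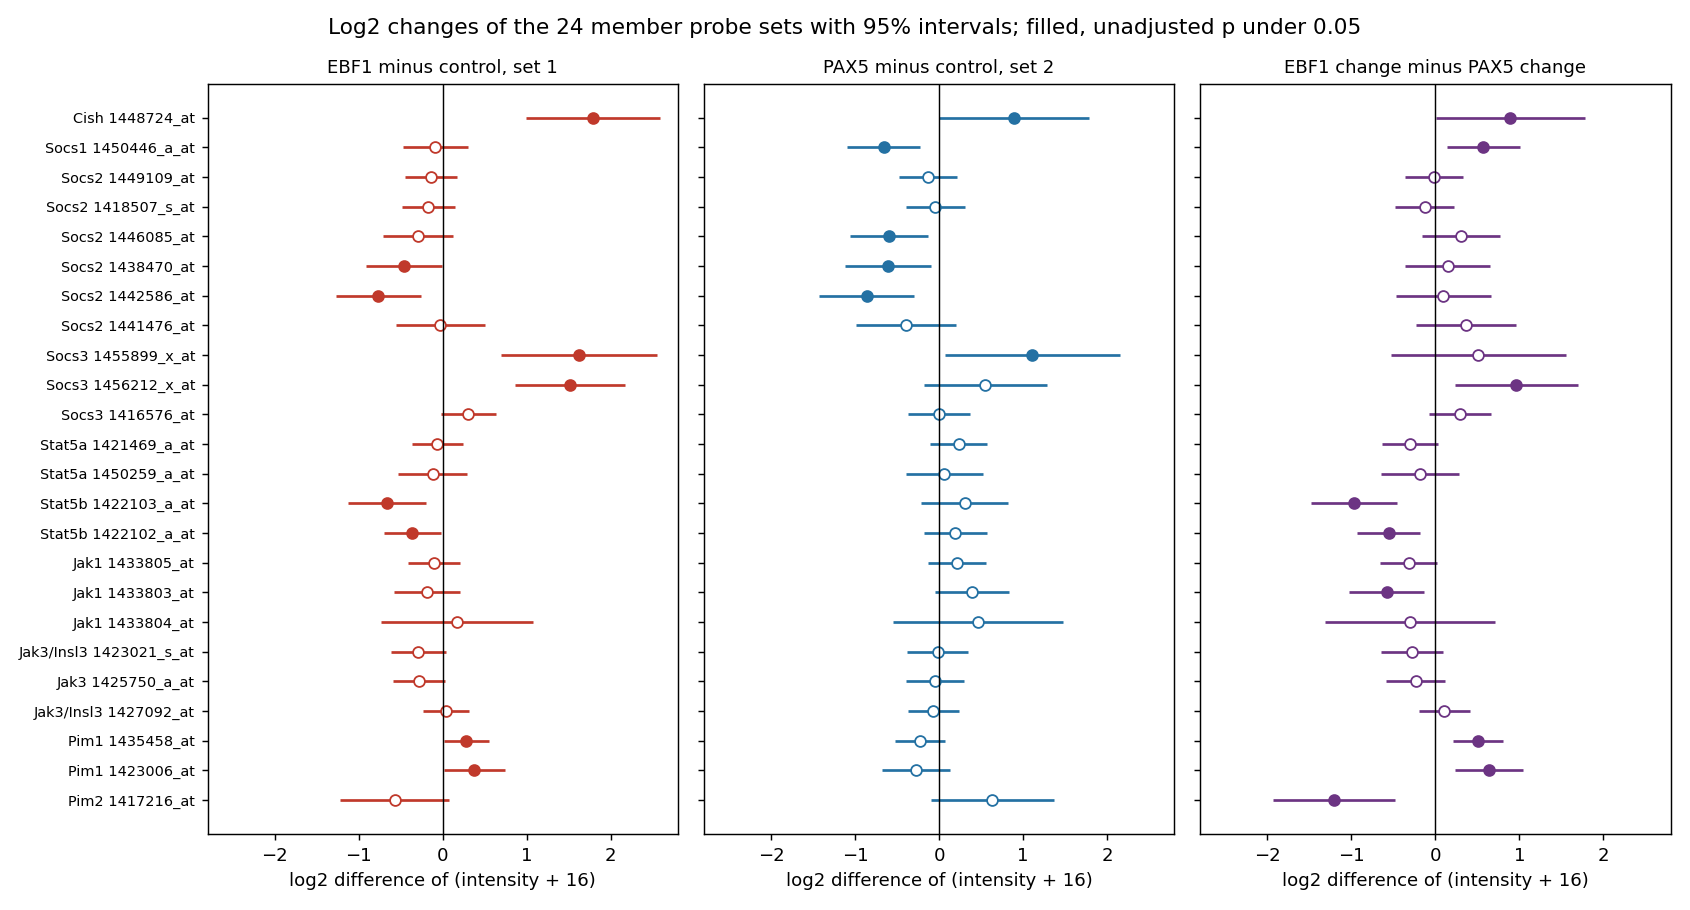
Log2 change (x axis) with its 95% interval for each of the 24 member probe sets in 3 panels: EBF1 minus control, PAX5 minus control, and the EBF1 change minus the PAX5 change; filled points have an unadjusted p under 0.05. Cish and Socs3 lie furthest right with EBF1, at up to 1.79, and the EBF1 and PAX5 points of Pim1, Pim2 and Stat5b lie on opposite sides of 0.

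Stat5a and Stat5b encode the closely related STAT5 proteins, which carry the cytokine signal to DNA. Stat5b (1422103_a_at) read 398, 551 and 603 on the EBF1 arrays, against 940.0, 667 and 872 on their controls, with no overlap. The log2 change was −0.67 (SE 0.20, 95% interval −1.13 to −0.20, adjusted p = 0.32). Its other probe set, 1422102_a_at, read 135, 161 and 157, against 205, 176 and 216, again without overlap, and gave −0.36 (SE 0.15, adjusted p = 0.47). With PAX5 both Stat5b probe sets overlapped their controls: 1422103_a_at read 1201, 886 and 919, against 948, 677 and 925, with a log2 change of 0.30 (SE 0.23, adjusted p = 0.81). The difference between the changes, −0.97 (SE 0.23, 95% interval −1.48 to −0.45), had an adjusted p of 0.097, the smallest of any member for this contrast. Stat5a overlapped its controls in both probe sets and both comparisons, with log2 changes of −0.12 to −0.07 with EBF1 and 0.06 to 0.23 with PAX5. Because the paralogs share sequence, signal from one could reach probes of the other, which was not tested.

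Of the receptor kinases, Jak1 overlapped its controls in all 3 probe sets and both comparisons. The probe set 1433805_at read 893, 1036 and 963 on the EBF1 arrays, against 959, 988 and 1178, and 1296, 1085 and 1048 on the PAX5 arrays, against 976, 937 and 1135. The log2 changes of the 3 probe sets ran from −0.19 to 0.17 with EBF1 and from 0.21 to 0.47 with PAX5, and the largest difference between the changes was −0.58 (1433803_at, SE 0.19, adjusted p = 0.22). Jak3 (1425750_a_at) read 266, 284 and 269 on the EBF1 arrays, against 343, 342 and 324, so the EBF1 arrays lay below their controls by a small and even step. The log2 change was −0.29 (SE 0.14, adjusted p = 0.54). A probe set shared with Insl3, 1423021_s_at, gave −0.29 as well (adjusted p = 0.55), and the other shared one, 1427092_at, stayed dim on every array (16.9 to 23.6) and gave 0.04. With PAX5 the Jak3 probe sets overlapped their controls, with −0.07 to −0.02.

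The mean log2 changes of the PIM kinases Pim1 and Pim2 had opposite signs in both comparisons, but none passed the test, and with EBF1 the arrays of Pim2 and of 1 Pim1 probe set overlapped their controls. Pim1 (1435458_at) read 3114, 2928 and 2645 on the EBF1 arrays, against 2434, 2314 and 2392 on their controls, and 2141, 1888 and 1904 on the PAX5 arrays, against 2416, 2305 and 2379. EBF1 arrays were all above and PAX5 arrays all below their controls. The log2 changes were 0.28 with EBF1 (SE 0.12, adjusted p = 0.48) and −0.23 with PAX5 (SE 0.13, adjusted p = 0.71), and their difference was 0.51 (SE 0.13, 95% interval 0.21 to 0.81, adjusted p = 0.12). The other Pim1 probe set, 1423006_at, read 931, 952 and 672 on the EBF1 arrays, against 676, 717 and 555, and 571, 576 and 568 on the PAX5 arrays, against 719, 735 and 629. EBF1 array 3 lay within the range of the controls there, and the difference between the changes was 0.64 (SE 0.18, adjusted p = 0.15).

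Pim2 (1417216_at) read 329, 342 and 766 on the EBF1 arrays, against 624, 761 and 625 on their controls. Arrays 1 and 2 lay far below all controls, while array 3 lay just above the highest of them. The log2 change with all 3 arrays was −0.57 (SE 0.29, 95% interval −1.23 to 0.08, adjusted p = 0.56). With PAX5 it read 1181, 1028 and 1086, against 669.8, 783 and 693, all above control, with a log2 change of 0.63 (SE 0.32, adjusted p = 0.66). The difference between the changes was −1.21 (SE 0.32, 95% interval −1.94 to −0.48, adjusted p = 0.13).

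EBF1 array 3 decided whether several of these values passed. The fits without it do not use the pairing of equal numbers, and control array 3 was kept. That control was the lowest for Cish (253) and Socs3 1455899_x_at (76.6). EBF1 array 3 read lowest of the EBF1 arrays for Cish and both Socs3 probe sets below, and highest for Pim2. Leaving it out therefore had to enlarge their changes. Without EBF1 array 3 the log2 change of Cish with EBF1 was 2.14 (SE 0.30, adjusted p = 0.016), that of Socs3 1456212_x_at 1.84 (SE 0.22, adjusted p = 0.0077), that of Socs3 1455899_x_at 1.96 (SE 0.40, adjusted p = 0.070) and that of Pim2 −0.96 (SE 0.14, adjusted p = 0.020). So 3 member probe sets passed without that array, against 0 with it, while over all probe sets the number that passed was 597 without it and 44 with it. For the difference between the EBF1 and PAX5 changes, Pim2 (−1.59, adjusted p = 0.0027), Socs3 1456212_x_at (1.29, adjusted p = 0.040) and Pim1 1423006_at (0.80, adjusted p = 0.043) passed without it. Stat5b 1422103_a_at did not (−1.09, adjusted p = 0.075). The Socs3 difference carries the limit given above, because the control levels of the sets stand apart for that probe set. Beside its stroma sum of 14036, EBF1 array 3 had the lowest B-lineage marker sum of the EBF1 arrays, 12931. The part of either in the readings of Cish, Socs3 and Pim2 was not tested. Control array 1 carried the highest stroma sum of the first set's controls, 3001, and the highest Socs3 readings among them. With both arrays left out, a setting chosen after the data were seen, Cish gave 2.10 (adjusted p = 0.072), Socs3 1456212_x_at 2.12 (0.0076), Socs3 1455899_x_at 2.37 (0.020) and Pim2 −1.01 (0.058). For both of these Socs3 probe sets that setting drops the lowest EBF1 array and the highest control. For Pim2 it drops the highest EBF1 array and the lowest control. Larger changes there follow from which arrays were dropped, so the Socs3 passes add no support.

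**Figure D3:**
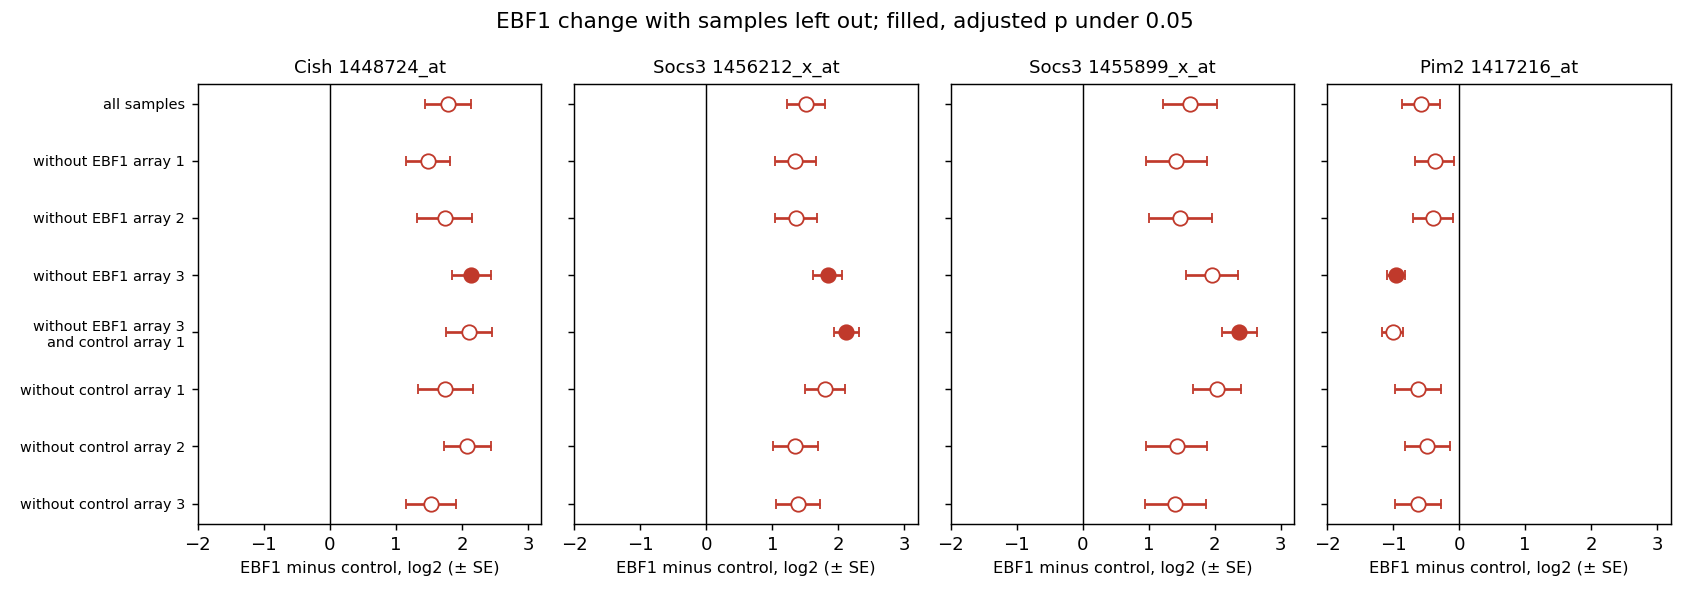
EBF1 minus control on the log2 scale, with its SE, for Cish, 2 Socs3 probe sets and Pim2, with all samples, with each EBF1 or control array left out, and with EBF1 array 3 and control array 1 left out together; filled points have an adjusted p under 0.05. Leaving out EBF1 array 3 moves Cish to 2.14 and Pim2 to −0.96, and no setting shown turns the sign of Cish or Socs3.

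In the other genes of the pathway, 51 of the 55 listed were measured by 125 probe sets with a single symbol, and the others were not analysed here. With EBF1, 0 of the 125 passed, and with PAX5 1 did. At an unadjusted p under 0.05 the counts with EBF1 were 13 higher (10.4%, against 5.53% of all probe sets) and 18 lower (14.4%, against 4.44%). With PAX5 they were 16 higher (12.8%, against 4.67%) and 3 lower (2.4%, against 3.84%). Among the receptors upstream of STAT5, 17 of 20 genes were measured by 28 probe sets, of which at the unadjusted threshold 1 was higher (3.57%, background 5.53%) and 5 lower (17.9%, background 4.44%) with EBF1, and 3 were higher (10.7%, background 4.67%) and 3 lower (10.7%, background 3.84%) with PAX5. Il7r (1448575_at), the alpha chain through which this culture's IL-7 acts, read 2028, 1841 and 1823 on the EBF1 arrays, against 3111, 737 and 2362, and 947, 899 and 884 on the PAX5 arrays, against 3109, 756 and 2416. Control array 2 was the lowest of each control group, and the log2 changes were 0.11 with EBF1 (adjusted p = 0.97) and −0.95 with PAX5 (SE 0.49, adjusted p = 0.67). Without control array 2 they were −0.51 with EBF1 (adjusted p = 0.27) and −1.56 with PAX5, which then passed (adjusted p = 0.015).

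The JAK and STAT relatives were measured for 6 of 7 genes by 13 probe sets, with a median log2 change of −0.33 with EBF1 and 0.07 with PAX5; 0 passed, and 5 were lower with EBF1 at the unadjusted threshold (38.5%, background 4.44%). Jak2, a kinase of single-chain and other cytokine receptors, read 664, 503 and 712 on the EBF1 arrays, against 1122, 836 and 879. Its log2 change was −0.58 with EBF1 (SE 0.17, adjusted p = 0.28), and it overlapped its controls with PAX5 (0.07). All 16 other negative regulators were measured, by 46 probe sets. The 1 that passed was Cblb (1455082_at), a ubiquitin ligase that restrains receptor signalling: it read 915, 703 and 724 on the PAX5 arrays, against 381, 264 and 337. Cblb rose with PAX5 by 1.28 on the log2 scale (SE 0.18, adjusted p = 0.024) and its EBF1 change minus its PAX5 change, −1.10, also passed (SE 0.18, adjusted p = 0.034). Its other probe sets gave 0.74 (adjusted p = 0.093) and 0.79 (0.29) with PAX5, and the PAX5 call was lost under 7 of 19 alternatives. These were without PAX5 array 1 (1.10, adjusted p = 0.34), without PAX5 arrays 2 and 3 (1.45, 0.066), without control array 2 (1.14, 0.079) or 3 (1.31, 0.10), with a pseudocount of 4 (1.31, 0.061), with its own set alone (1.28, 0.12) and with EBF1 array 3 and control array 1 left out (1.39, 0.051). The call on the difference was lost under 9 of 17 alternatives, with values of −1.27 to −0.92. These were without EBF1 array 1 (adjusted p = 0.087), 2 (0.089) or 3 (0.051), without control array 3 (0.062), without PAX5 array 1 (0.40) or arrays 2 and 3 (0.075), with a pseudocount of 4 (0.069), with 12 arrays counted separately (0.12) and with EBF1 array 3 and control array 1 left out (0.059).

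The 12 STAT5-responsive growth and survival genes were all measured, by 38 probe sets. None passed. At the unadjusted threshold 12 probe sets of 7 genes were higher (31.6%, background 5.53%) and 4 of 2 genes lower (10.5%, background 4.44%) with EBF1, and 7 of 4 genes were higher (18.4%, background 4.67%) and 0 lower (background 3.84%) with PAX5. Bcl2l1 (1420888_at), which encodes the survival protein BCL-XL, read 546, 637 and 452 on the EBF1 arrays, against 297, 367 and 291, and 494, 584 and 612 on the PAX5 arrays, against 327, 385 and 328. Neither pair of groups overlapped, and the log2 changes were 0.74 (SE 0.16, adjusted p = 0.17) and 0.63 (SE 0.18, adjusted p = 0.29). Without EBF1 array 3 the EBF1 value was 0.87 and passed (adjusted p = 0.049). Bcl2, another survival gene, has 5 probe sets, and the brightest (1457687_at) read 1969.5, 3066 and 3599 on the EBF1 arrays, against 4250.1, 4976 and 3803, all below control (−0.63, adjusted p = 0.38), and gave −0.07 with PAX5. Its 4 other probe sets gave −1.08 to −0.90 with EBF1 (adjusted p = 0.41 to 0.61), and in each of them EBF1 array 3 lay within or above the range of the controls while arrays 1 and 2 lay below it.

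Myc, a driver of growth, read 2030.1, 2523 and 1575 on the EBF1 arrays, against 695, 1557 and 1227, and 727, 905 and 875 on the PAX5 arrays, against 743, 1566 and 1292. Its EBF1 and PAX5 log2 changes were 0.86 (SE 0.28, adjusted p = 0.36) and −0.50 (adjusted p = 0.76), with a difference of 1.36 (adjusted p = 0.097). Bcl6, a transcriptional repressor, read 101, 105 and 97.2 on the EBF1 arrays, against 139, 93.1 and 89.4, and 420.5, 226 and 232 on the PAX5 arrays, against 98.7 to 157. The log2 changes were −0.05 and 1.31 (SE 0.26, adjusted p = 0.093), and the difference was −1.36 (adjusted p = 0.053). Bcl6 passed with PAX5 under 3 of 19 alternatives: the replicate block (1.17, adjusted p = 0.037), 12 arrays counted separately (1.17, 0.039) and without PAX5 arrays 2 and 3 (1.72, 0.049). Its difference passed under 6 of 17 (adjusted p = 0.026 to 0.045), 1 of them without PAX5 arrays 2 and 3 (−1.78, 0.034). The cyclin genes Ccnd2 and Ccnd3 gave 0.48 and 0.41 with EBF1 and −0.31 and 0.08 with PAX5, Pim3 gave 0.52 and 0.01, and the survival gene Mcl1 gave 0.03 and 0.40, with adjusted p-values of 0.37 or above throughout.

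The genes whose pattern over the 8 samples was most like that of a member were found among 11747 brighter probe sets, each set taken relative to its own controls. For Cish they were Chchd10 (Pearson r = 0.985), Qrsl1 (0.984) and Tada2b (0.982). For Socs3 1456212_x_at they were Nmrk1 (0.980), Cyfip2 (0.974) and Fam126b (0.964). For Socs1 they were Phgdh (0.984), Idh2 (0.977) and Psmb7 (0.975). These are the highest of many correlations over few samples that share controls, and are a description. For Socs3 1456212_x_at they also join sets whose control levels stand apart.

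Marker sums of other cell types were set beside the members. The stroma sum was 3669, 1666 and 14036 on the EBF1 arrays and 3001, 1361 and 1611 on their controls, with 0 of 44 stroma probe sets past the test and 4 higher at the unadjusted threshold (9.09%, background 5.53%). Col1a1, which defines such cells, read 32.7, 3.51 and 132 on the EBF1 arrays, against 17.1, 1 and 1 on their controls. The second set's controls, which look like the same hybridisations, read it at 97.6, 78.3 and 88.4, so a value of 1 does not show that stroma RNA was absent. On the PAX5 arrays the stroma sum was 1584, 2680.2 and 2770.4, against 3405, 1585 and 2032. The sum over 14 immediate-early genes, which respond to handling as well as to signals, was 8412, 7149 and 6502 on the EBF1 arrays, against 5546, 5474 and 5269.9, and 12884, 6379 and 6571 on the PAX5 arrays, against 5840.4, 5502 and 5708. These sums lay above control on every EBF1 and PAX5 array. With EBF1 the lack of overlap needed Myc, which is also among the STAT5-responsive genes. Without Myc, again chosen after the data were seen, the EBF1 sums were 6382, 4626 and 4927, against 4852, 3917 and 4043. Each was still above the control of its number, but array 2 lay below control array 1. The PAX5 sums without Myc stayed above control (12157, 5475 and 5696, against 5098, 3936 and 4415). The myeloid sum over 11 genes was 736, 615 and 1048 on the EBF1 arrays, against 2536, 1756 and 1172, and 5268, 3413 and 3399 on the PAX5 arrays, against 3209.9, 2427 and 1928. The higher PAX5 sums rest on Ccr2 alone, which read 3406, 2129 and 2177, against 318.4, 369.5 and 241. Without Ccr2, a setting chosen after the data were seen, the PAX5 sums were 1861, 1284 and 1223, against 2892, 2057 and 1686, which overlap, and the EBF1 sums stayed below control (620.5, 464 and 809, against 2237, 1397 and 945). Over the 17 myeloid probe sets the median log2 change with PAX5 was 0.01. The natural killer and innate lymphoid sum over 10 genes was above control on every EBF1 array (9283, 7358 and 4825, against 3274, 3140.1 and 2381), which rests on Gzma; without it, chosen after the data were seen, the EBF1 sums were below control (1059.9, 1220.3 and 1948, against 3213, 3102 and 2342). With PAX5 the sum was 2844, 2506 and 2449, against 3511, 3297 and 2659, and the arrays overlapped. The dendritic sum over 8 genes was 3921, 5759 and 8562 on the EBF1 arrays, against 11275, 8521 and 10281, where array 3 overlapped the controls. On the PAX5 arrays it was 6889.9, 7991 and 7708, against 11065, 8512 and 10169.7, all below control. Much of this sum is Ccr9 and Flt3. With PAX5, Flt3, also a progenitor marker, read 1328, 1178 and 1168, against 2870, 1822 and 2672, while Ccr9 overlapped its controls. Of 15 dendritic probe sets 1 passed with PAX5, of Itgax, and it was higher (0 lower). The sum without Flt3 was not taken. The part of these cell types and of handling in the members' readings was not tested.

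**Figure D4:**
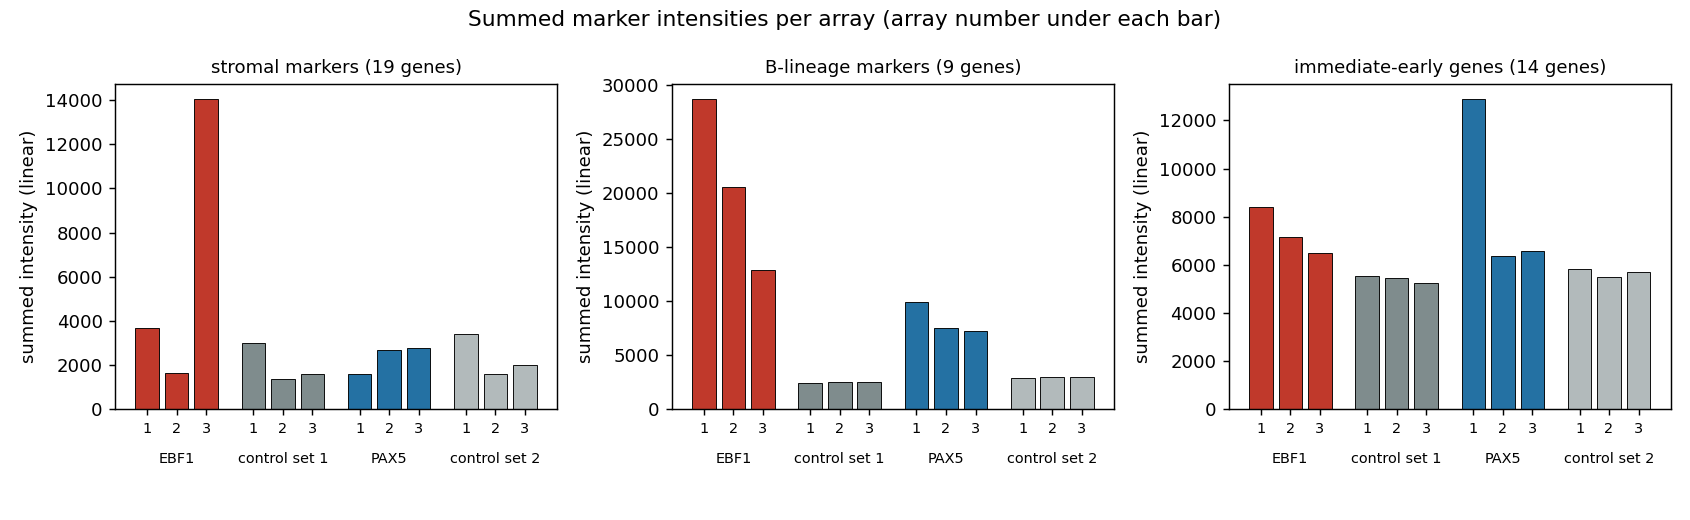
Summed intensity (linear axis from 0) of the stroma, B-lineage and immediate-early marker lists, with 1 bar per array and EBF1 and PAX5 each left of the controls of their own set. The stroma sum of EBF1 array 3, 14036, lies above all other arrays, and the B-lineage sums of the EBF1 arrays run from 12931 to 28718.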

How the data were processed

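Total RNA of the sorted cells was made into biotin-labelled cRNA (standard Affymetrix method, per the labels' protocols). The authors deposited 1 linear intensity per probe set and array, and the sources used here do not say how probes were summarised or arrays normalized. The 2 sets look separately processed, so EBF1 and PAX5 arrays were each set against their own set's controls. On each array 2.5% to 3.05% of probe sets are listed at exactly 1, and values near that floor have no order. Levels of different probe sets were not compared.

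Symbols came from the platform annotation (34945 probe sets with 1 symbol, 932 with several, 9160 with none). Entrez IDs placed 34741 of those with 1 symbol in RefSeq's gene list for GRCm38.p6, which changed 0 symbols, and the other 204 kept theirs. Probe sets were named by their annotated symbol, and coordinates are given only for RefSeq promoter windows. No value column was left out.

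Intensities were tested as log2(intensity + 16) with limma 3.58.1 in R 4.3.3 (lmFit, eBayes; data.table, version 1.17.8, read the files), Benjamini-Hochberg adjusted over all 45037 probe sets, threshold 0.05. Fold changes on this scale understate dim changes. Control arrays of equal number were averaged after their set offset was removed, as were PAX5 arrays 2 and 3, which left 8 samples, 5 residual and 3.68 prior degrees of freedom. The fit was also run on simulated data. These had neither paired EBF1 and control arrays nor an array that stood apart, so that run does not cover those features. Equal numbers of EBF1 and control arrays deviated together (r = 0.177, 0.343 and 0.211 over all probe sets, all above 0.1) and were taken to pair. The fit over the 8 samples does not use that pairing, so its SEs, intervals and p-values are unpaired. Only the replicate block, run as an alternative, uses it. For PAX5 and control arrays all 3 exceeded 0.1 over the 12889 bright probe sets (0.411, 0.194 and 0.333) but not over all (0.163, 0.0503 and 0.152), and PAX5 arrays 2 and 3 look like 1 hybridisation, so their pairing is unsettled. The number of arrays limits the precision.

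The members, the pathway and marker lists and the design were chosen with earlier results of these data known. Named were all members, pathway genes past the threshold and 11 set beforehand, of which Il2rg was not analysed here. The pathway lists and likeness used probe sets with 1 symbol, and likeness a mean log2 level of at least 8. Motifs were matched in Python 3.11.15 with pandas 2.3.3, and figures drawn with matplotlib 3.10.9. Alternatives covered the pseudocount, quantile normalization, a filter on dim probe sets, the counting of arrays, the replicate block, a trended prior, 1 probe set per gene and left-out arrays.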

Additional observations from a re-analysis of the deposited data

How the results depend on the processing

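In all, 19 alternatives were run, 18 chosen beforehand and 1 (EBF1 array 3 and control array 1 left out together) after the data were seen. The 24 members' values gave 1228 results with the same direction and side of the threshold. Another 15 newly passed, and 29 had a turned sign, none of them called. None could lose a call, because 0 passed as reported above. With EBF1 the number of probe sets past the threshold, 44, was 14 with a pseudocount of 64, 9 with the filter on dim probe sets, 295 with all 12 arrays counted separately, 95 with PAX5 arrays 2 and 3 counted separately, 18 with its own set alone, 7 with the replicate block and 280 with the added pair left out. Leaving out 1 sample gave 18 to 597, over 1.5 times apart from 44 for every sample but EBF1 array 1. With PAX5 the number, 232, was 153 with a pseudocount of 4, 133 with the filter, 638 with 12 arrays, 464 with PAX5 arrays 2 and 3 separate, 122 with its own set alone and 142 with the added pair left out. Leaving out 1 sample gave 50 to 263, lowest without PAX5 array 1, and 99 to 149 without a control array or without PAX5 arrays 2 and 3. For the difference the number, 473, was 287 with a pseudocount of 4, 208 with 12 arrays, 1351 with PAX5 arrays separate and 730 with the added pair left out, and 78 to 874 with 1 sample left out, lowest without PAX5 array 1 and highest without EBF1 array 3. Members past the threshold with EBF1, 0 as reported, were 2 with 12 arrays, 2 with the added pair left out and 0 to 3 with 1 sample left out, 3 being without EBF1 array 3. For the difference they were 2 with PAX5 arrays separate (Stat5b 1422103_a_at, Pim1 1435458_at), 1 with a trended prior (Pim1 1435458_at), 2 with the added pair left out and 0 to 3 with 1 sample left out. With PAX5 they were 0 under every alternative run. The replicate block kept 0 members called (Cish adjusted p = 0.27, Socs3 0.29 and 0.31) and gave 257 probe sets with PAX5. Its EBF1 SEs were 0.25 for Cish, against 0.35 in the fit over 8 samples, and 0.24 and 0.23 for these Socs3 probe sets, against 0.41 and 0.29. The log2 changes were the same, and for Socs3 1416576_at the SE was 0.147, against 0.145.

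Signs turned as follows. With the added pair left out, Stat5a 1421469_a_at with EBF1 was 0.092, Jak3 1423021_s_at with PAX5 0.033, and the differences of Socs2 1442586_at and Jak1 1433804_at −0.084 and 0.077. Bcl6 with EBF1 was 0.15 there, and with PAX5 Ccnd3 was −0.024 and Pim3 −0.22. Quantile normalization gave Jak3 1427092_at with EBF1 −0.0051, and 12 arrays, separate PAX5 arrays and the replicate block each gave Stat5a 1450259_a_at with PAX5 −0.027. With 1 sample left out the EBF1 values ran from −0.23 to 0.20 for Socs2 1441476_at, −0.21 to 0.033 for Stat5a 1421469_a_at, −0.22 to 0.027 for Stat5a 1450259_a_at, −0.19 to 0.55 for Jak1 1433804_at, −0.035 to 0.097 for Jak3 1427092_at, −0.15 to 0.13 for Bcl6, −0.054 to 0.12 for Mcl1 and −0.51 to 0.51 for Il7r. The PAX5 values ran from −0.13 to 0.023 for Socs2 1418507_s_at, −0.11 to 0.090 for Socs3 1416576_at, −0.20 to 0.33 for Stat5a 1450259_a_at, −0.24 to 0.20 for Jak3 1423021_s_at, −0.28 to 0.18 for Jak3 1425750_a_at, −0.014 to 0.19 for Jak2, −0.15 to 0.033 for Bcl2, −0.024 to 0.19 for Ccnd3 and −0.22 to 0.35 for Pim3. The differences ran from −0.098 to 0.084 for Socs2 1449109_at, −0.094 to 0.28 for Socs2 1442586_at, −0.45 to 0.085 for Stat5a 1450259_a_at, −0.62 to 0.082 for Jak1 1433804_at and −0.023 to 0.24 for Bcl2l1. Causes were not tested.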
